A study of Mus musculus with 2 samples.

Results

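The genes described here encode scaffolds and regulators of the postsynaptic density, the protein layer under the synaptic membrane of a neuron. They were chosen as a list of 40 gene symbols, and 39 of them are present in both deposited count tables, out of 32531 gene symbols in all. The remaining symbol, Preso, is a synonym of Frmpd4 in the RefSeq gene table; Frmpd4 was counted among other pathway genes and not among the members. RNA came from the dorsal striatum of Drd1-TRAP mice of line CP73 (Drd1-EGFP/Rpl10a), in which a Drd1 bacterial artificial chromosome drives an EGFP-tagged ribosomal protein in cells that express the dopamine receptor Drd1. The strain is labelled as FVB/N-Swiss Webster crossed for at least 9 generations to C57BL/6. Both groups had long-access intravenous cocaine self-administration; in 1 group the intake escalated and in the other it did not, so all animals had taken cocaine. Each group is 1 library of total tissue RNA, the input and not the purified ribosome fraction. The sources used here give no age, sex or number of animals for a library.

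At excitatory synapses, PDZ-domain scaffolds of the Dlg family hold glutamate receptors at the membrane and bind Dlgap linkers, which bind Shank proteins, which in turn bind Homer. Around this core sit anchors of enzymes, regulators of small GTPases and regulators of actin that shape the dendritic spine. In the striatum the spines of projection neurons receive cortical glutamate input and dopamine, and spinophilin, Shank3 and Dlgap3 are well known for their roles there.

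Among these genes, with TMM factors, the Shank scaffolds Shank1 and Shank3 and the linker Dlgap3 were each more than 2-fold lower in the escalating library. The AMPA receptor partner Grip2 was 3.11-fold higher. Scaled by total assigned reads, their log2 ratios were -0.86 (Shank1), -0.75 (Shank3), -0.76 (Dlgap3) and 1.98 (Grip2). Shank1, Shank3 and Dlgap3 were then less than 2-fold lower. Calls required a ratio of 1.5-fold or more, in either direction, with a 95% counting interval that left out 1. The 38 members that reached 50 counts, summed over the pair of libraries, were tested: 9 were called lower (Shank1, Dlgap3, Shank3, Nsmf, Cnih2, Homer2, Cyfip1, Ppp1r9b and Agap2) and 4 higher (Grip2, Pick1, Dlg3 and Akap5). That is 23.7% and 10.5% of the members, beside 17.1% and 9.36% of all 12213 genes tested, so the share called is not far from the background in either direction. The median log2 ratio, escalating over nonescalating, was -0.17 for the members and 0.02 for all genes. With 1 library per group there is no replicate error and no test, and the intervals cover counting error only. With TMM factors the highest gene of the escalating library held 85230 CPM and that of the nonescalating library 273659 CPM. Total assigned reads count such genes in full, and their part in the calls under that scaling was not tested. Scaling by total assigned reads in place of TMM factors moves the median of all genes to 0.38 and that of the members to 0.19. Then 4 members were lower (Dlgap3, Nsmf, Shank1 and Shank3; 9.4% of all genes) and 10 higher (31.5% of all genes). Those 10 were the 4 above with Baiap2, Cyfip2, Gphn, Kalrn, Strn and Synpo. At 2-fold with TMM, 1 member was higher and 3 were lower (2.04% and 8.88% of all genes). With no minimum fold, 11 members had an interval above 1 and 22 below it (27.2% and 29.4% of all genes).

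**Figure D1:**
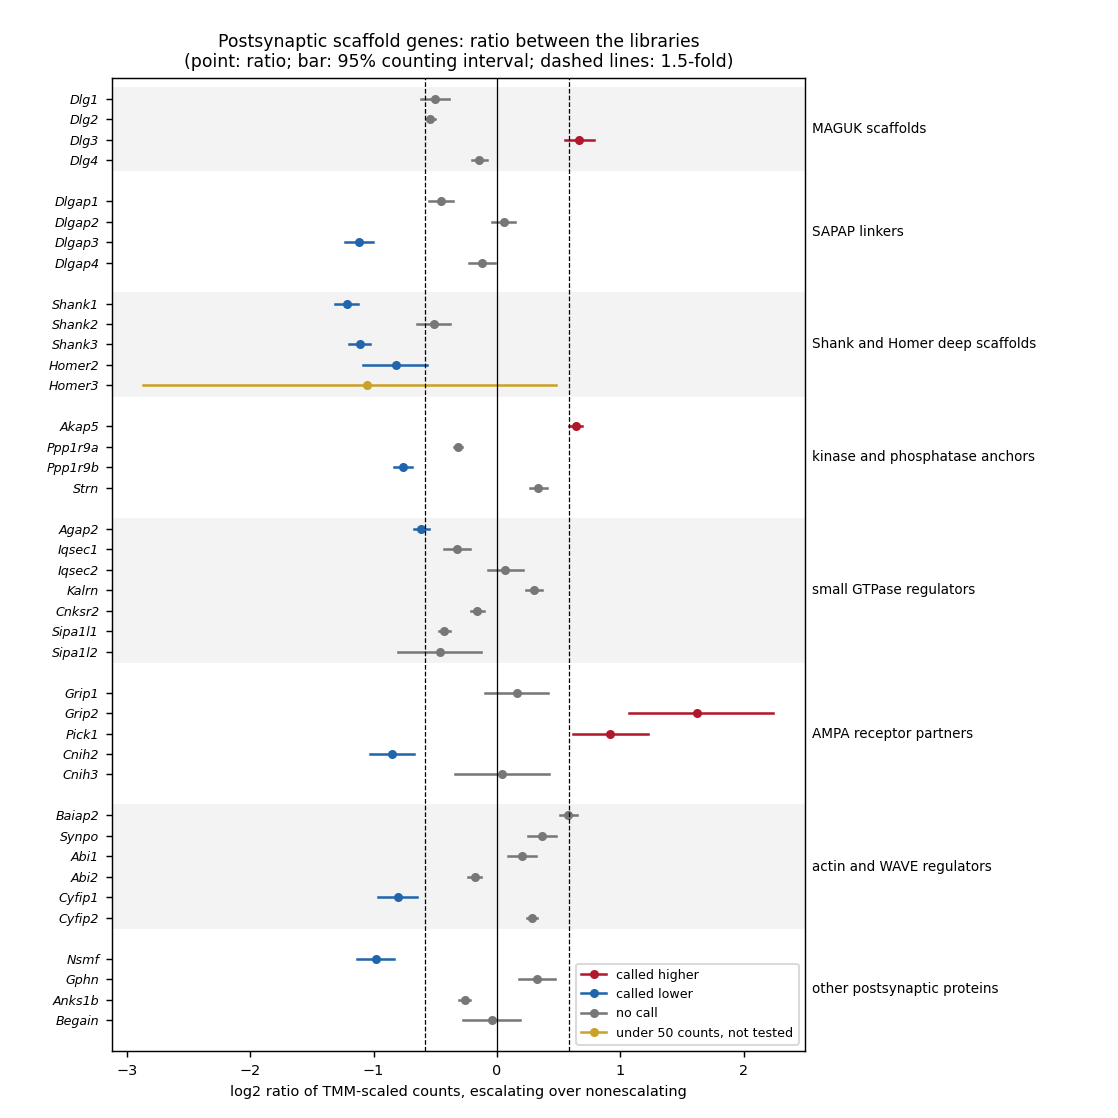
Log2 ratio of TMM-scaled counts, escalating over nonescalating library, for the 39 genes by role; points are ratios, bars 95% counting intervals and dashed lines 1.5-fold. Shank1, Shank3 and Dlgap3 lie below -1 and Grip2 at 1.62, while Homer3, with 6 and 10 counts, has the widest bar.

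The libraries held 9548358 (escalating) and 9376097 (nonescalating) reads assigned to genes. Drd1 had 3010 and 2959 counts, Drd2 1628 in each, and Ppp1r1b, which encodes the striatal phosphatase inhibitor DARPP-32, 18584 and 7710, so defining markers of striatal projection neurons were present in both. Other cell types differed between the libraries. All 12 microglial markers were lower in the escalating library (summed level 34.9 against 1552 CPM, with Trem2 at 0 counts there), as were all 10 astrocyte markers (1688 against 14409 CPM), 7 of 10 mature oligodendrocyte markers (1531 against 3938 CPM) and 7 of 8 endothelial markers (70.3 against 135 CPM). The highest astrocyte marker made up most of its sums, at 1421 and 13256 CPM, and the median log2 ratio of that list was -2.21. Of 10 pan-neuronal markers 2 were higher and 0 lower (7585 against 6222 CPM). Of 7 cortical excitatory neuron markers 5 were higher and 1 lower (362 against 226 CPM, of which the highest marker held 294 and 185). The D1 and D2 projection neuron lists had no call among 7 genes each. The oligodendrocyte precursor list had 1 higher and 2 lower of 6. These counts are with TMM factors, beside 9.36% higher and 17.1% lower of all genes tested. With total-read scaling 31.5% of all genes tested were higher and 9.4% lower. On that scaling the pan-neuronal list had 7 higher and the D1 list 2 higher. The D2 list had no call, and the cortical list had 5 higher and 0 lower. The lower calls were then 12 microglial, 9 astrocyte, 4 mature oligodendrocyte and 4 endothelial markers, and the precursor counts stayed at 1 and 2. The part of these cell types in the ratios of the postsynaptic genes was not tested, and in whole tissue fewer cells of a type and less RNA per cell cannot be told apart.

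The members called lower were mostly GC-rich transcripts. Of the 7 members tested whose longest annotated transcript is above 60% GC, 6 were called lower (Shank1, Dlgap3, Shank3, Cnih2, Ppp1r9b and Agap2) and Begain had no call; this limit was chosen after the values were seen. Among all 437 genes tested above the same limit, 17.8% were lower and 14.0% higher, and their median log2 ratio was -0.02, against -0.85 for the 7 members. With total-read scaling 3 of the 7 were lower (Shank1, Dlgap3 and Shank3) and 0 higher, with a median of -0.49, beside 7.09% lower, 33.4% higher and a median of 0.34 for the 437 genes. Homer3, which was not tested, also lies above 60%. Just below 60%, Iqsec2 (59.6%) and Dlgap4 (59.4%) had no call, Nsmf (59.3%) was lower and Grip2 (58.8%) higher. Split at the members' median of 52.1% GC, 7 of 19 members above it were lower and 2 higher. At or below it, 2 of 19 were lower and 2 higher. Among all genes with an annotated transcript, 17.7% above that split were lower and 12.4% higher. At or below it the shares were 17.2% and 6.86%. Across the 38 members Spearman's correlation between GC content and log2 ratio was -0.28, and across 11317 genes tested with an annotated transcript it was 0.07; both describe genes within the same pair of libraries. As examples of base composition, the middle 120 bases of the longest coding exon are printed for some called members. They are the lowest and the highest with at least 1000 counts, from GENCODE transcripts (build GRCm38, the same as mm10). Capitals mark G and C. All lie on the plus strand: Shank1 at chr7:44353041-44353160 (68.3% G or C), Dlgap3 at chr4:127195104-127195223 (60.8%), Dlg3 at chrX:100768191-100768310 (66.7%) and Akap5 at chr12:76328864-76328983 (50.8%). Over the whole coding sequence the values were 63.6%, 64.8%, 53.7% and 50.6%. The printed Dlg3 stretch, of a member called higher, was thus richer in G and C than its whole coding sequence and than the Dlgap3 stretch.
Shank1: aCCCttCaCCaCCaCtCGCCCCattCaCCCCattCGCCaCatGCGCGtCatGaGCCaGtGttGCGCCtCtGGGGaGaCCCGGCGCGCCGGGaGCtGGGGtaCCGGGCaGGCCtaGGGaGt
Dlgap3: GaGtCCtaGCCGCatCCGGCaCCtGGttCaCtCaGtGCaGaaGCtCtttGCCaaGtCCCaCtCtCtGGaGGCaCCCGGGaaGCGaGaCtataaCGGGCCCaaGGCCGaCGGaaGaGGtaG
Dlg3: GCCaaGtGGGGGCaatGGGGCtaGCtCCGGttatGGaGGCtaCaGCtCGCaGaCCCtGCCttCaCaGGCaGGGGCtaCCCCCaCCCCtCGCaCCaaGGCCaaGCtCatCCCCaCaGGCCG
Akap5: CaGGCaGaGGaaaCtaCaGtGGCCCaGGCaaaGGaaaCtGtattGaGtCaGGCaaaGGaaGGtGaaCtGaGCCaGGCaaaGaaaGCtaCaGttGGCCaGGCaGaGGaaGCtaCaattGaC

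**Figure D2:**
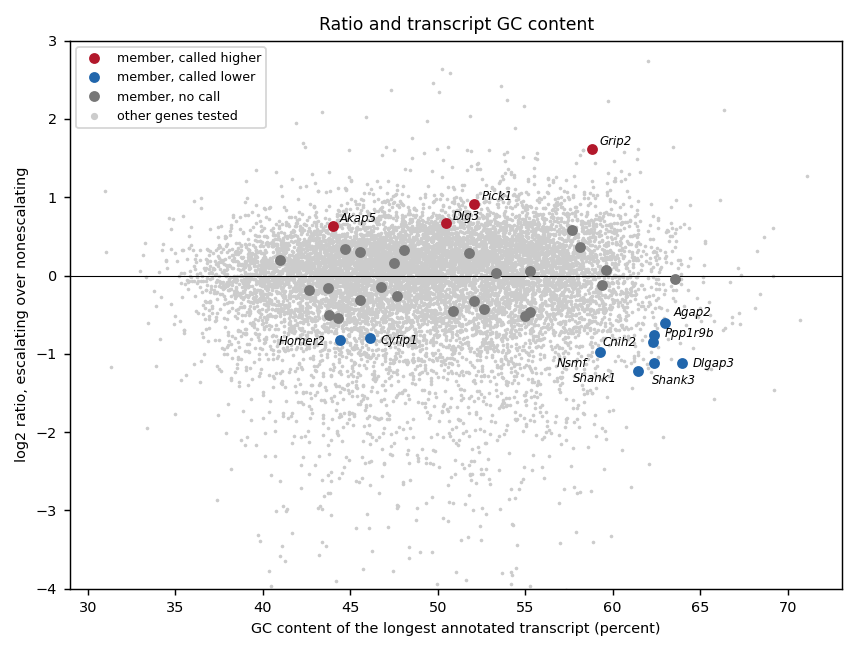
Log2 ratio against the GC content of the longest annotated transcript (percent) for the 38 members tested (coloured) and all other genes tested (light grey; 69 genes lie beyond the plotted range of -4 to 3). The called-lower members Shank1, Dlgap3, Shank3, Cnih2, Ppp1r9b and Agap2 lie above 60% GC, and Homer2 and Cyfip1 below 50%.

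Among the membrane-near MAGUK scaffolds, only Dlg3 was called. Dlg3, which is prominent at young synapses and anchors NMDA receptors (chromosome X, 100767722 to 100818410), drew 1719 reads in the escalating library against 827 in the other, or 159 and 100 CPM, and was 1.59-fold higher (interval 1.46 to 1.73). Dlg4, which encodes the main scaffold of mature excitatory synapses (chromosome 11, 70016942 to 70047522), had 4780 and 4042 counts, or 442 and 489 CPM, and a log2 ratio of -0.15. Its direction turned with total-read scaling, to 0.22. Dlg2, a close relative that also clusters NMDA receptors and potassium channels, held the most reads of the family with 10745 and 11942 counts (993 and 1443 CPM), and its log2 ratio of -0.54 (-0.58 to -0.50) ended just short of 1.5-fold. Dlg1, which traffics AMPA receptors, had 1228 against 1328 counts, a log2 ratio of -0.50.

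The 4 members are best compared as shares of their own family's reads, which do not depend on how the libraries are scaled. Dlg3 took 9.31% of Dlg reads in the escalating library (8.89 to 9.73, an exact 95% binomial interval) against 4.56% (4.26 to 4.87) in the other. Dlg2 took 58.2% (57.5 to 58.9) and 65.8% (65.1 to 66.5), and Dlg4 25.9% (25.3 to 26.5) and 22.3% (21.7 to 22.9). The intervals of Dlg1 overlapped, at 6.65% and 7.32%. Dlg2 thus led the family in both libraries, with a larger lead in the nonescalating library. After division by exon length it led as well, with 46.2% and 56.3%.

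Dlgap proteins bind the guanylate kinase domain of the Dlg scaffolds and link them to Shank. Dlgap3, the family member best known from striatum (chromosome 4, 127169204 to 127237022), had 982 and 1629 counts, or 90.8 and 197 CPM, and was 2.17-fold lower in the escalating library (2.003 to 2.35). The other 3 had no call: Dlgap1 had 1639 against 1717 counts, a log2 ratio of -0.45, Dlgap2 2214 and 1632 counts and a ratio of 0.05, and Dlgap4 1652 and 1373 counts and a ratio of -0.12, which became 0.24 with total-read scaling. Dlgap3 took 15.1% of the family's reads in the escalating library (14.3 to 16.0) against 25.6% (24.6 to 26.7) in the other, and Dlgap2 34.1% (33.0 to 35.3) against 25.7% (24.6 to 26.8). Reads are more numerous from longer transcripts, so these shares do not rank the genes. Per kilobase of exon, Dlgap2 led in the escalating library with 41.7% of the family and Dlgap3 in the nonescalating library with 40.8%. Dlgap4 overlaps the exons of 4930405A21Rik on the opposite strand.

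The Shank and Homer layer lies deeper in the density. With TMM its genes had the lowest median of the 8 role groups, -0.97 over 4 genes tested. Of these, 3 were called lower, beside 17.1% of all genes tested. With total-read scaling 2 were lower, beside 9.4% of all genes, and the median was -0.61, beside 0.38 for all genes. Shank1, whose mRNA is known to be carried into dendrites (chromosome 7, 44310253 to 44360572), drew 1470 reads in the escalating library against 2616 in the other, or 136 and 316 CPM, and was 2.33-fold lower (2.18 to 2.48). It overlaps the exons of 1700008O03Rik on the opposite strand. Shank3, the best studied striatal Shank (chromosome 15, 89499623 to 89560261), had 1709 and 2827 counts, or 158 and 342 CPM, and was 2.16-fold lower (2.04 to 2.30). Shank2 had 921 against 1006 counts, a log2 ratio of -0.51 (-0.65 to -0.38), with no call. All 3 genes therefore had intervals below 1, but they were not equally displaced: Shank2 took 22.5% of Shank reads in the escalating library (21.2 to 23.8) against 15.6% (14.7 to 16.5) in the other, while Shank1 took 35.9% (34.4 to 37.3) and 40.6% (39.4 to 41.8). Shank3 took 41.7% and 43.8%, with overlapping intervals.

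Homer2, a constitutive adaptor that links Shank to metabotropic glutamate receptors, had 218 and 295 counts, or 20.1 and 35.7 CPM, and was 1.77-fold lower (1.48 to 2.12). It was not called with total-read scaling. Homer3 had 6 and 10 counts and was not tested; a difference was not detectable at this depth (log2 interval -2.87 to 0.48). It overlaps Ddx49 on the opposite strand.

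The promoters of Shank3 and Akap5 are shown because these genes were called in opposite directions and both were rich in CpG. The 250 bases before the annotated start of a gene, from RefSeq (GRCm38.p6), were available for 32 of the members, with 60 starts in all. They held a median of 13.5 CpG dinucleotides, against 6 for all 32851 promoters in the table. Not every window of a called member was rich in CpG: Dlgap3 had 2, and Dlg3 had 7 and 19 at separate starts. These windows begin at chr4:127172630, chrX:100774245 and chrX:100777021. They lie inside the GENCODE spans of the genes, which start at 127169204 and 100767722. The CpG before those outermost starts were not counted. Shank3 (chr15:89499358-89499607, plus strand) had 31 and Akap5 (chr12:76324641-76324890, plus strand) 20, printed here with each CpG in capitals.
Shank3: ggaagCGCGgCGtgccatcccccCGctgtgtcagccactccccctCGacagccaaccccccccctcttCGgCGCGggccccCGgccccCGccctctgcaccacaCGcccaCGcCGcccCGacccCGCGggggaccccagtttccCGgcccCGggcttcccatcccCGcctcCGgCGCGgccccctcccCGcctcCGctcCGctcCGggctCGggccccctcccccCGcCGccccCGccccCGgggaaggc
Akap5: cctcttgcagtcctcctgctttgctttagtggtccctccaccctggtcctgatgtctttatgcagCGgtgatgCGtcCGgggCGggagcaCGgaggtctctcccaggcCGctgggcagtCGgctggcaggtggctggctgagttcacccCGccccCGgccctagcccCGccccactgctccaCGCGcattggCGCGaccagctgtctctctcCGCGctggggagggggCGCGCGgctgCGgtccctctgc

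Motifs of activity-regulated factors were searched on both strands of the same windows. The cyclic AMP response element TGACGTCA was in 0 of the 60 member promoters and in 1.55% of all promoters, the AP-1 motif TGANTCA in 1 (Sipa1l2) and in 6.75%, and the EGR motif GCGTGGGCG in 2 (Shank3 and Sipa1l2) and in 0.536%. The Shank3 match begins at base 105 of the printed window, on the opposite strand.

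Anchors of kinases and phosphatases went in different directions. Akap5, which holds protein kinase A and calcineurin at the postsynaptic membrane (chromosome 12, 76324891 to 76334153), drew 9541 reads in the escalating library against 4690 in the other, or 882 and 567 CPM, and was 1.56-fold higher (1.502 to 1.61). The stretch of Akap5 printed above lies in its single coding exon. Ppp1r9b, which encodes spinophilin, the spine-enriched anchor of protein phosphatase 1 (chromosome 11, 94991035 to 95006899), had 2591 and 3359 counts, or 239 and 406 CPM, and was 1.70-fold lower (1.61 to 1.79), a call lost with total-read scaling. Its relative Ppp1r9a, which encodes neurabin, had the most counts of any member, 14809 and 14084 (1369 and 1702 CPM), with a log2 ratio of -0.31 that became 0.05 with total-read scaling. Ppp1r9b took 14.9% of the reads of this pair in the escalating library (14.4 to 15.4) against 19.3% (18.7 to 19.9) in the other. Strn, a regulatory scaffold of protein phosphatase 2A named after the striatum, had 4729 against 2868 counts, a log2 ratio of 0.33 (0.27 to 0.40).

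Of 7 regulators of small GTPases, which set the shape and size of spines, 1 was called, in the lower direction, beside 17.1% of all genes tested. Agap2, an Arf GTPase-activating protein that also binds Homer, had 4338 and 5074 counts, or 401 and 613 CPM, and was 1.53-fold lower (1.47 to 1.59). It lost the call with total-read and upper-quartile scaling. Kalrn, a Rac exchange factor that enlarges spines, had 5206 against 3239 counts, a log2 ratio of 0.30. The Rap GTPase-activating protein Sipa1l1 had 7364 against 7574 counts, a log2 ratio of -0.43, and Cnksr2, a scaffold of Ras signalling, 6716 and 5739 counts and a ratio of -0.16 (0.20 with total-read scaling). Of the Arf exchange factors, Iqsec1 had 1524 against 1462 counts, a log2 ratio of -0.33 (0.03 with total-read scaling), and Iqsec2 923 and 673 counts with a ratio of 0.07. Iqsec2 took 37.7% of the pair's reads in the escalating library (35.8 to 39.7) against 31.5% (29.6 to 33.5) in the other. Sipa1l2 had 144 and 152 counts and took 1.92% and 1.97% of the Sipa1l pair, whose split was the most alike between the libraries of all 11 families.

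AMPA receptor partners, which move these receptors to and from the synapse or tune them there, had few reads (a sum of 125 and 133 CPM over 5 genes, not divided by length). Of the 5, 2 were called higher and 1 lower, beside 9.36% and 17.1% of all genes tested. With total-read scaling 2 were higher and 0 lower, beside 31.5% and 9.4% of all genes. Grip2, a PDZ protein that binds the AMPA receptor tail (chromosome 6, 91761509 to 91827250), drew 130 reads in the escalating library against 32 in the other, or 12.01 and 3.87 CPM, and was 3.11-fold higher (2.10 to 4.73). Grip1 had 311 against 213 counts, a log2 ratio of 0.16, and Grip2 took 29.5% of the pair's reads (25.3 to 34.0) against 13.1% (9.11 to 17.9). Pick1, which binds the same receptor tail and takes part in its removal from the membrane (chromosome 15, 79229173 to 79249484), had 321 and 130 counts, or 29.7 and 15.7 CPM, and was 1.89-fold higher (1.54 to 2.33). Cnih2, an auxiliary subunit that slows AMPA receptor closing (chromosome 19, 5092868 to 5098521), had 450 and 620 counts, or 41.6 and 74.9 CPM, and was 1.80-fold lower (1.59 to 2.04), a call lost with total-read scaling. It overlaps the exons of Yif1a on the opposite strand. Its relative Cnih3 had 137 against 102 counts, a log2 ratio of 0.04, and took 23.3% of the pair's reads (20.0 to 27.0) against 14.1% (11.7 to 16.9).

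Actin regulators had a median log2 ratio of 0.24, with 1 of 6 called lower, beside 17.1% of all genes tested. With total-read scaling 3 were higher and 0 lower, beside 31.5% and 9.4% of all genes. Cyfip1, a subunit of the actin-regulating WAVE complex that many cell types express (chromosome 7, 55841745 to 55932602), had 577 and 771 counts, or 53.3 and 93.2 CPM, and was 1.75-fold lower (1.57 to 1.95). This call was lost with total-read scaling, and Cyfip1 overlaps the exons of Nipa2 on the opposite strand. Cyfip2, the relative that is mainly found in brain, had 13886 and 8717 counts (1283 and 1054 CPM) and a log2 ratio of 0.28. Cyfip1 took 3.99% of the pair's reads in the escalating library (3.68 to 4.32) against 8.13% (7.58 to 8.69) in the other. Baiap2, which bends membranes and links Rac to actin, had 4877 and 2498 counts and lay just under the threshold at 1.49-fold (1.42 to 1.57). Synpo, which organises the spine apparatus, had 1645 against 977 counts, a log2 ratio of 0.36. Abi1 and Abi2, interchangeable WAVE subunits, had log2 ratios of 0.20 (1578 and 1049 counts) and -0.18 (6290 and 5449 counts; 0.18 with total-read scaling). Abi1, which overlaps Pdss1 on the opposite strand, took 20.1% of the pair's reads (19.2 to 20.96) against 16.1% (15.3 to 17.1).

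Of the remaining postsynaptic proteins, Nsmf, a messenger from NMDA receptors to the nucleus (chromosome 2, 25054355 to 25062881), had 605 and 915 counts, or 55.9 and 111 CPM, and was 1.98-fold lower (1.78 to 2.20). Gphn, which encodes gephyrin, the scaffold of inhibitory synapses, had 1035 against 633 counts, a log2 ratio of 0.32 (0.18 to 0.47). Anks1b, a scaffold that binds the Dlg4 product, had 8017 against 7352 counts, a log2 ratio of -0.26, and Begain, another partner of that product, 350 and 276 counts and a ratio of -0.04. The ratios of both became positive with total-read scaling, at 0.10 and 0.32.

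**Figure D3:**
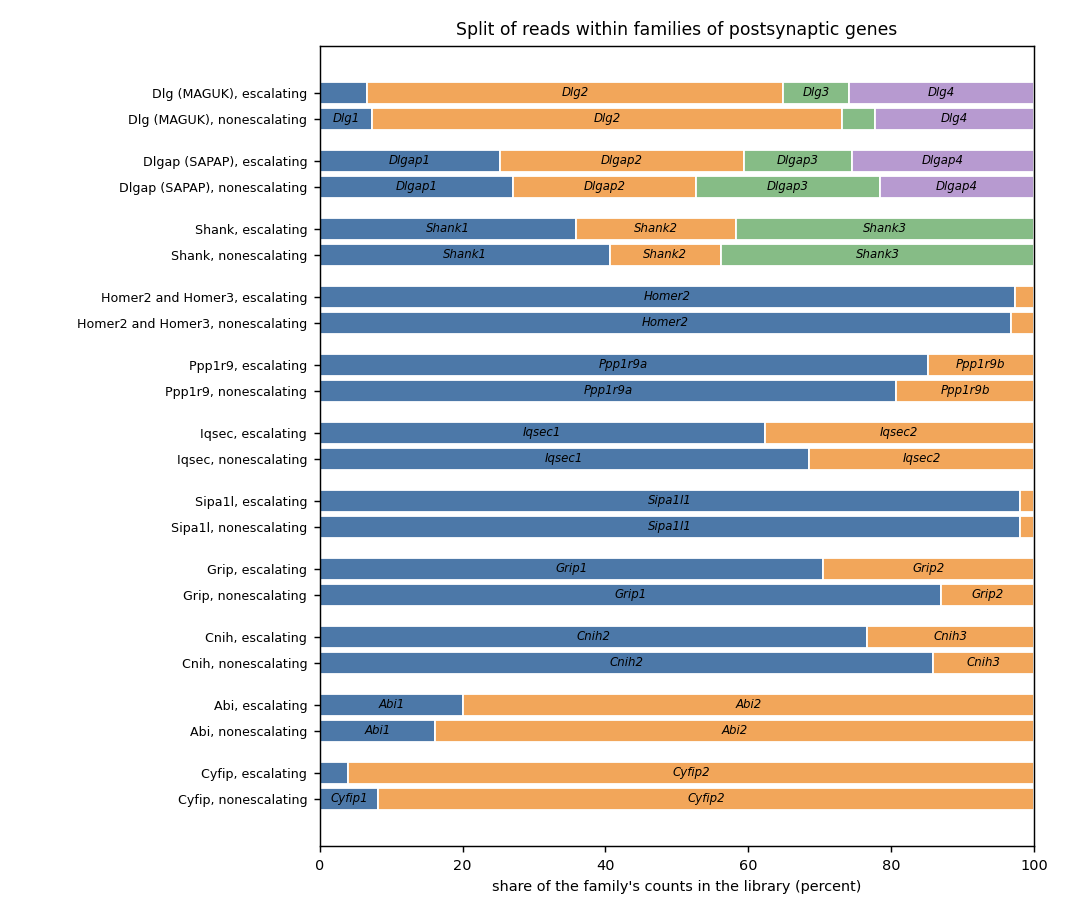
Share of each family's counts (percent, horizontal axis) taken by each member in the escalating and nonescalating library, for 11 families; unlabelled slivers are the remaining member. The Dlgap3 share is 15.1% against 25.6% and the Grip2 share 29.5% against 13.1%, while the Sipa1l split is 98.1% against 98.0% for Sipa1l1.

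Levels between genes were compared per kilobase of annotated exon. On this length Cyfip2 was the highest member in both libraries, at 181 CPM per kilobase in the escalating library and 148 in the other. Next in the escalating library came Akap5 (129), Ppp1r9a (94.2), Baiap2 (90.3) and Abi2 (68.0), and in the nonescalating library Ppp1r9a (117), Agap2 (103), Dlg2 (88.7) and Akap5 (83.1). With 1 library per group, no spread is available to separate neighbours in this order. Homer3 was lowest, at 0.161 and 0.351, and Grip2 had 1.28 and 0.413. The order depends on the length used: per kilobase of the longest transcript Cyfip2 was again highest in the escalating library (193), but in the nonescalating library Dlg2 (185) and Ppp1r9a (178) stood above Cyfip2 (158). Among the 38 members tested, 32 lay above the median of all genes with an annotated length in each library (4.59 and 4.80 CPM per kilobase), and the member medians were 20.0 and 26.3. Of the scaffold core, Dlg2 stood highest in both libraries (61.0 and 88.7). Dlgap3 had 20.1 and 43.6 CPM per kilobase, so it was below Dlgap2 (33.3) in the escalating library and above it (32.1) in the nonescalating library.

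**Figure D4:**
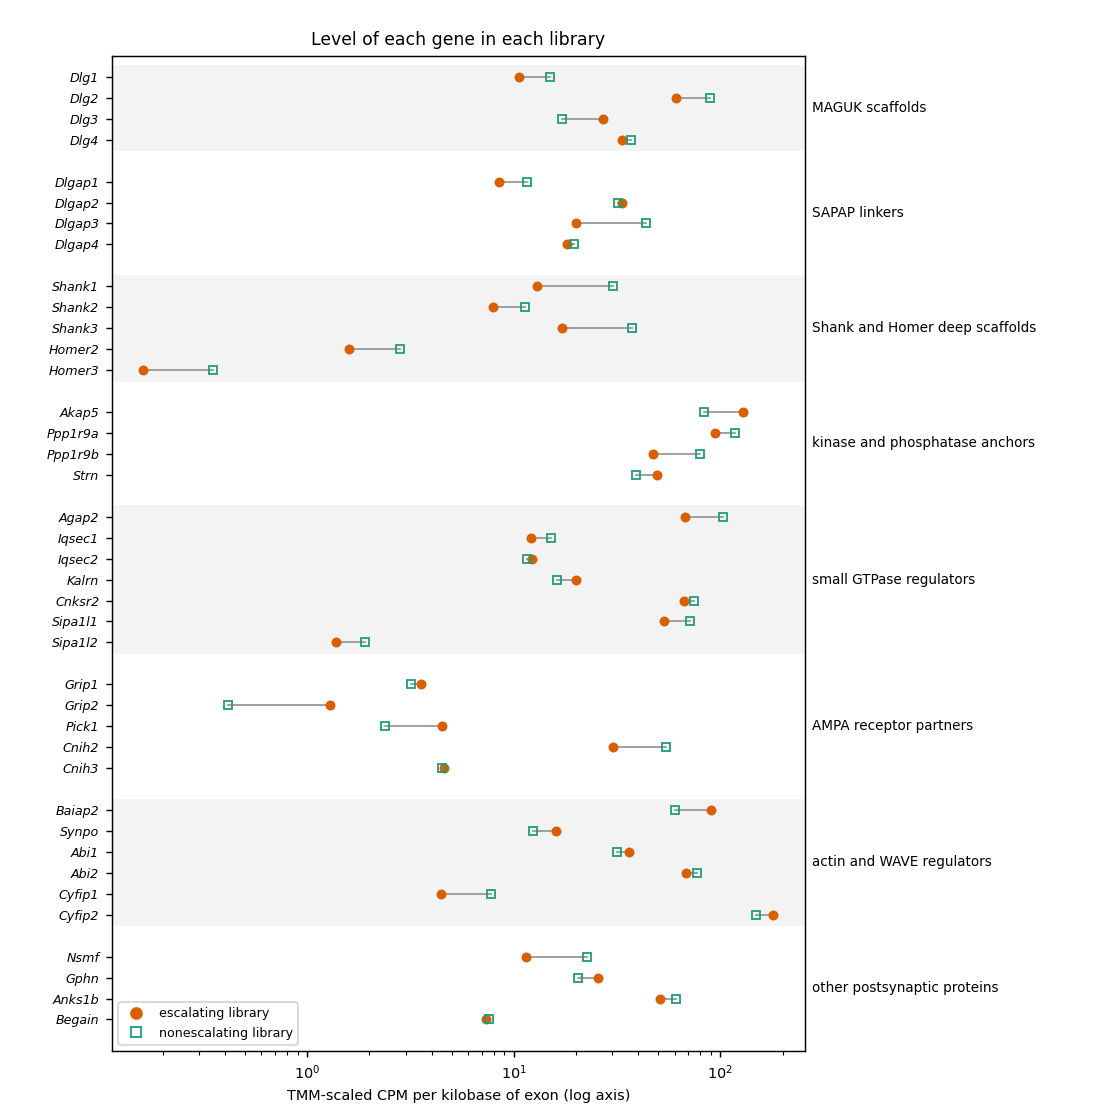
Level of the 39 genes in TMM-scaled CPM per kilobase of exon (log axis), by role; filled circles are the escalating and open squares the nonescalating library, 1 library each. On this length Cyfip2 is highest at 181 and 148 and Homer3 lowest at 0.161 and 0.351; on the longest transcript Dlg2 (185) and Ppp1r9a (178) pass Cyfip2 (158) in the nonescalating library.

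Other genes of the same pathways were counted list by list. Of 29 other excitatory postsynaptic genes tested, 1 was higher and 5 lower (median -0.12), beside 9.36% and 17.1% of all genes tested. The lower calls were thus close to the share of all genes. Arc, an activity-induced regulator of AMPA receptor endocytosis, was lowest at a log2 ratio of -1.89 (224 and 637 counts), followed by Camk2a, the kinase most abundant in the postsynaptic density, at -1.10 (15631 and 25544 counts). The other 3 were Cacng2, which encodes the AMPA receptor auxiliary subunit stargazin, at -0.63, Shisa9 at -0.61 and Dlg5 at -0.60; these 3, with Arpc3 and Mob1a named after them, were chosen after their values were seen. Frmpd4, a Dlg4 and Homer binding protein, was 1.56-fold higher (1.45 to 1.68), with 2220 and 1090 counts.

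Of 15 further WAVE complex and Rac-PAK genes, 2 were higher and 2 lower (median -0.03), beside 9.36% and 17.1% of all genes tested. Wasf1, the neuronal WAVE gene, was 1.56-fold higher (1.47 to 1.66), while the broadly expressed Wasf2 had a log2 ratio of -1.16 and Nckap1l, the subunit of blood-derived and microglial cells, one of -2.97 (42 and 255 counts). The other gene called higher was Arpc3, a subunit of the Arp complex that nucleates actin, at 0.63. Of this list, 7 of 15 genes had an interval below 1 and 5 above it, beside 29.4% and 27.2% of all genes. Those called lower, as Cyfip1 was, are Wasf2 and Nckap1l. The microglial markers summed to 34.9 against 1552 CPM, and the part of those cells in Cyfip1 was not tested. Of 14 phosphatase 1 and kinase anchor genes 2 were higher and 0 lower (median -0.05), beside the same shares of all genes. Ppp1r1b was at 0.88 and the catalytic subunit Ppp1cc at 0.61. Of 13 genes on the striatin complex list 0 were higher and 1 lower (median 0.31), again beside those shares. The lower one was Mob1a at -1.78 (19 and 51 counts), whose place in that complex was not checked here. Ppp2r1a, Sike1 and Strn4 had log2 ratios of 0.57, 0.56 and 0.55, under the threshold. With total-read scaling the calls were 4 higher and 2 lower for the excitatory list and 4 and 2 for WAVE and Rac-PAK genes. They were 3 and 0 for phosphatase 1 and kinase anchors and 8 and 1 for the striatin complex list. Of all genes tested, 31.5% were then higher and 9.4% lower. The medians of these lists then lay between 0.24 (excitatory) and 0.67 (striatin complex), so the negative medians of the excitatory, WAVE and anchor lists turned positive.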

How the data were processed

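Dorsal striatum was homogenised and its total RNA purified (Agilent Nanoprep), per the labels' protocols, giving 1 library per group. Per the submitters' processing notes, the authors used STAR 2.0.0e, HTSeq and the build mm10; the sources used here give no HTSeq version, strand setting or annotation. What the authors deposited is the raw count of reads for each gene symbol. Groups came from the titles, and no library was left out. Reads given to no gene stayed out of library sizes: reads in no annotated gene were 28.6% (escalating) and 18.1% (nonescalating) of those listed, and reads in more than 1 gene 8.06% and 18.9%, so genes with overlapping exons may be undercounted unequally.

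Library sizes were multiplied by TMM factors (1.13 and 0.882; edgeR 4.0.16, R 4.3.3). Log2 ratios used a pseudocount of 0.5; folds are ratios of CPM without it. Intervals are exact 95% Clopper-Pearson intervals for the split of a gene's counts or for a share of a family's counts; they cover counting error only. A count of 0 allows up to 3 counts, or 0.277 and 0.363 CPM. With 1 library per group, nothing was tested between groups. The ratios and calls were checked on simulated counts that held counting error only. That check cannot show how far calls would hold between libraries or animals. Lengths, GC content, coordinates and exon overlaps came from GENCODE M21, matched by symbol. The members and lists were chosen with earlier results of these data known. All members in the tables are named, with the 3 genes of each other pathway list that have at least 100 counts and the largest ratio in size (a selection is printed, and some lists are not reported here). Alternatives were DESeq2 1.42.0 size factors, other scalings, filters, pseudocount and thresholds. Other steps ran in Python 3.11.15 (scipy 1.17.1, pandas 2.3.3, numpy 2.4.6, matplotlib 3.10.9).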

Additional observations from a re-analysis of the deposited data

How the results depend on the processing

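No paired analysis was possible because each group has 1 library. With total-read scaling 10 members were higher and 4 lower (31.5% and 9.4% of all genes), against 4 and 9 with TMM (9.36% and 17.1%). The median log2 ratio of the members was 0.19 against -0.17, beside 0.38 against 0.02 for all genes. The sign of 8 of 38 members turned under total-read scaling, none of them called. At 2-fold 1 member was higher and 3 lower (2.04% and 8.88% of all genes). With no minimum fold 11 were higher and 22 lower (27.2% and 29.4% of all genes). With upper-quartile factors 5 were higher and 8 lower, Baiap2 being added and Agap2 lost. The share of all genes called was not counted with those factors, where the median of all genes was 0.09. DESeq2 size factors, TMM without AK140265, Rn45s and Malat1, a filter of 10 counts, no filter and a pseudocount of 5 each left all 38 calls as they were. Without the 5 members tested that overlap another gene's exons, a setting chosen after the data were seen, 4 were higher and 6 lower. Of all genes tested, overlapping or not, 9.36% were higher and 17.1% lower. Using the longest transcript as the length, 33 and 32 members lay above the median level, against 32 and 32. Depth limits Homer3 (6 and 10 counts) and widens the interval of Grip2.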
